A study of Mus musculus with 6 samples.

Results

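The genes described here are the 9 that encode enzymes on the route from acetyl-CoA through mevalonate to squalene and its epoxide: Acat2, Hmgcs1, Mvk, Pmvk, Mvd, Idi1, Fdps, Fdft1 and Sqle. They are a list of symbols that no measured value enters, though it was drawn up with earlier results of these data known, and each matched 1 of the 55487 Ensembl identifiers in a table of raw RNA-seq counts from whole mouse ovary. All 9 were among the 16957 genes with enough counts to be tested. One step of the route, the reduction of HMG-CoA to mevalonate, is not analysed here. The table holds 3 libraries from wildtype mice and 3 from mice with the genotype GalT-/-, named GalTKO below, which lack galactose-1-phosphate uridylyltransferase (Galt). In people the loss of this galactose-handling enzyme is the cause of classic galactosemia. Mice of both genotypes had the strain label cbl/6-ola/129, were at postnatal day 49 and had received a diet with 2.5% galactose for 4 weeks, so no group on a galactose-free diet enters any comparison. The labels give neither the Galt allele, the estrous stage nor the litter, and do not say whether a library is 1 animal. The p-values therefore measure the spread between these libraries, which may be technical.

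The mevalonate route starts with the joining of acetyl-CoA units in the cytosol and builds the 5-carbon isoprenoid units from which cells make sterols, dolichol, ubiquinone and the lipid anchors of prenylated proteins. Transcription of its genes is raised by the membrane-bound factor SREBP-2 when sterols in the endoplasmic reticulum are low and falls when they are plentiful. In the ovary cholesterol is the substrate of steroid hormones, and luteal cells both take it up from lipoproteins and make it. Acat2 encodes the cytosolic thiolase that forms acetoacetyl-CoA, and Hmgcs1 the synthase that adds the next acetyl unit to give HMG-CoA. Mvk and Pmvk encode the kinases that add phosphates to mevalonate in succession. Mvd encodes the decarboxylase that forms isopentenyl diphosphate, and Idi1 the isomerase that turns it into dimethylallyl diphosphate. Fdps encodes farnesyl diphosphate synthase, at the point where the sterol and the other isoprenoid branches part. Fdft1 encodes squalene synthase, the first enzyme committed to sterols, and Sqle the epoxidase that adds oxygen to squalene.

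For 6 of the 9 genes the RefSeq table used here holds promoter windows on GRCm38.p6, each running from 250 bases before a transcription start to 50 after it. Pmvk has 2 windows and the other genes 1 each. The windows were searched on both strands for TCACNCCAC, the core of a sterol response element, for the CCAAT box CCAAT and for the GC box GGGCGG. SREBP-2 binds sterol response elements, and the factors NF-Y and SP1 bind the other motifs and often act beside it. The 250 bases before the start are shown 5′ to 3′ on the gene's strand, with every match in capitals (a match on the opposite strand reads as its reverse complement), for Hmgcs1 as the most abundant of the genes, for Mvk with its run of CCAAT boxes, for Mvd with the lowest fitted ratio of GalTKO to wildtype, and for Idi1 and Acat2, which passed the test between genotypes.
Hmgcs1, chr13:119690101-119690350, plus strand: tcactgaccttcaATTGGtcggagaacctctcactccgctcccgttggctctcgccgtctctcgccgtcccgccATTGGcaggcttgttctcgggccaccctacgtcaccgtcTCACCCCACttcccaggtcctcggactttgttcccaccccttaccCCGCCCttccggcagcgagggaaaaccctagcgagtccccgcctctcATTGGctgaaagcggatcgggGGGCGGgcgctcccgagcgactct
Mvk, chr5:114444019-114444268, plus strand: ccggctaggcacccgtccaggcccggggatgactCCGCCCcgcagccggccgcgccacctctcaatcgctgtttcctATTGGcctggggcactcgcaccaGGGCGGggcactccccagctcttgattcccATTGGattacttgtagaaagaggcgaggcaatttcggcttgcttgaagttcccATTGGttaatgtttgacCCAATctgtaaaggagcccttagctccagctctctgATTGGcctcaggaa
Mvd, chr8:122443423-122443672, minus strand: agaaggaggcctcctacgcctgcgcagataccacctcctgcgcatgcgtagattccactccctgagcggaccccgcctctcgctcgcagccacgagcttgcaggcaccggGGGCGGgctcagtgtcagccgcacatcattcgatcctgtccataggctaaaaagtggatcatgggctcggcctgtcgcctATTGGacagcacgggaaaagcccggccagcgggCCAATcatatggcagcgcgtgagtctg
Idi1, chr13:8885356-8885605, plus strand: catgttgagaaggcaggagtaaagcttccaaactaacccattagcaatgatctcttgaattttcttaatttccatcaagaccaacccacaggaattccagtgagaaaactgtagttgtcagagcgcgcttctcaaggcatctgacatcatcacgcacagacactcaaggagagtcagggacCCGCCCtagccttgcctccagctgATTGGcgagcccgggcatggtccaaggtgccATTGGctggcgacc
Acat2, chr17:12960726-12960975, minus strand: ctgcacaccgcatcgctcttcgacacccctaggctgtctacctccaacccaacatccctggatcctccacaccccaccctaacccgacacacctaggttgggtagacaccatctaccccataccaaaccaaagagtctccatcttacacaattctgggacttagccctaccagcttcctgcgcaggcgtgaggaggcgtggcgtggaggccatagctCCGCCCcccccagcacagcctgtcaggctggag
The sterol response element core was found in the Hmgcs1 window alone among those of the 6 genes, with its first base at -137 relative to the start, and 1.24% of all 32851 windows of the same length hold it. The Hmgcs1 window also holds 4 CCAAT boxes and 3 GC boxes, 1 of each in the 50 bases after the start, which are not shown. Its CCAAT boxes begin at -237, -176, -45 and 11, counted from the transcription start. The Mvk window has 5 CCAAT boxes, at -173, -120, -67, -50 and -14, and 2 GC boxes. A window with 4 or more CCAAT boxes occurs in 1.06% of all windows, and 37.4% hold at least 1. Mvd and Idi1 each have 1 GC box and 2 CCAAT boxes, at -60 and -27 in Mvd and at -45 and -14 in Idi1. Acat2 has 1 GC box and no CCAAT box in its window, and the first of the Pmvk windows has 1 CCAAT box and no GC box. GC boxes occur in 35.7% of all windows, and no matches overlapped in the 6 genes. A match describes the letters in a window and not a bound site.

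Depth was 19232486 to 25729564 counts per library, and the 9 genes had between 223 counts (Pmvk) and 30959 counts (Hmgcs1) in a library. Levels are given as CPM, counts scaled to a common library size. The Galt level was 17.1 ± 0.904 CPM in the wildtype libraries and 0.138 ± 0.130 CPM in the GalTKO ones (mean ± SD, n = 3 each), the direction the labels state. Some libraries stood apart for these genes. All 9 were highest in wildtype replicate 3, while 18.6% of all tested genes were, and 8 of 9 were lowest in GalTKO replicate 2. Wildtype replicate 3 lay 1.15 to 1.83 times above the mean of the other wildtype replicates (median 1.497), against a median of 0.998 and a 5th to 95th percentile of 0.678 to 1.39 over 14718 genes at 1 CPM or more. Mitochondrial transcripts made up 1.37% to 1.97% of counts in wildtype and 2.22% to 3.53% in GalTKO, and their part in the results was not tested.

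The mevalonate genes were lower in GalTKO ovaries. Acat2, Hmgcs1 and Idi1 fell to 40.2%, 49.2% and 41.2% of wildtype and passed edgeR's quasi-likelihood test at an adjusted p under 0.05 over all tested genes. The other 6 had fitted levels of 29.7% to 72.9% of wildtype with adjusted p between 0.0634 and 0.18. All 9 had a negative log2 fold change, as did 46.6% of all tested genes, and all 9 had every GalTKO library below every wildtype library, as did 12.0%. The 3 that passed compare with 1.43% of all tested genes called lower, and all 9 had an unadjusted p under 0.05 in this direction, against 8.90%. The median log2 fold change (GalTKO minus wildtype) was -1.02 over the 9 genes and 0.02 over all tested genes. The smallest gap between the groups was that of Fdps, whose lowest wildtype library was 1.17 times its highest GalTKO library, and the largest that of Mvd, at 1.91 times.

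**Figure D1:**
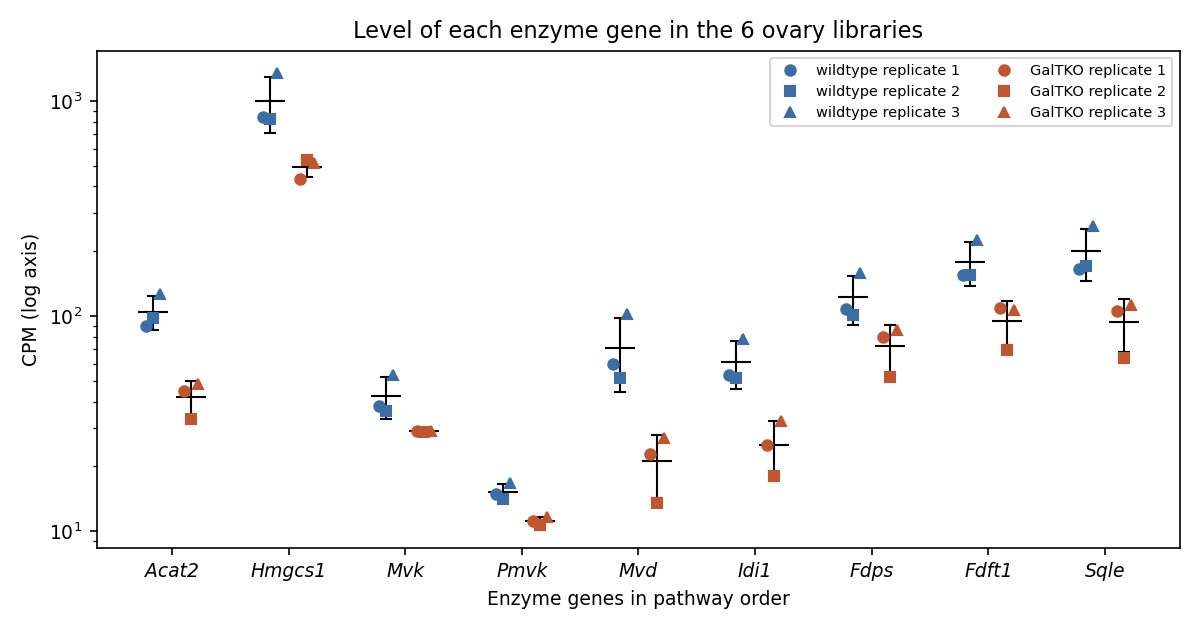
CPM of the 9 genes (log axis) in each of the 6 libraries, with wildtype in blue and GalTKO in orange, the replicate by symbol, and the mean ± SD of 3 libraries as a horizontal line and bar. In all 9 genes the highest GalTKO point is below the lowest wildtype point, and wildtype replicate 3 is the highest point.

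The genes of the first steps, Acat2 and Hmgcs1, both fell. Acat2 (ENSMUSG00000023832, chr17:12942890-12960747, minus strand) was at 90.2, 98.1 and 126.0 CPM in wildtype replicates 1 to 3 and at 44.7, 33.1 and 48.4 CPM in GalTKO replicates 1 to 3. No GalTKO library came near the wildtype range: the lowest wildtype value was 1.86 times the highest GalTKO value. The log2 fold change was -1.32 ± 0.17 (SE), with a 95% interval of -1.72 to -0.91 and an adjusted p of 0.0101, the smallest of the 9 genes. Acat2 passed the threshold with any 1 library left out, at adjusted p between 0.00659 and 0.0419. Hmgcs1 (ENSMUSG00000093930, chr13:119690379-119708260, plus strand) was at 839, 824 and 1341 CPM in wildtype and 434, 531 and 515 CPM in GalTKO. Its wildtype spread came from replicate 3, while the GalTKO libraries lay within 1.22 times of each other. Unlike the other 8 genes, Hmgcs1 had its highest GalTKO value in replicate 2 and its lowest in replicate 1. Its log2 fold change was -1.02 ± 0.20, with an interval of -1.48 to -0.56 and an adjusted p of 0.0438. The call lay close to the threshold. Without wildtype replicate 3 the log2 fold change of Hmgcs1 was -0.76 and it passed (adjusted p 0.0416), whereas leaving out any other library raised its adjusted p above the threshold, to at most 0.13. The call was also lost without the low-count filter (adjusted p 0.0724) and with protein-coding genes only (0.0558).

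Mvk and Pmvk, the kinase genes, showed the smallest differences. Mvk (ENSMUSG00000041939, chr5:114444269-114460591, plus strand) was at 38.2, 36.1 and 53.4 CPM in wildtype and at 29.2, 29.0 and 29.1 CPM in GalTKO. Its GalTKO libraries had a coefficient of variation of 0.357%, less than the 4.23% that counting error alone gives the shallowest of them. Mvk was at 68.4% of wildtype, with a log2 fold change of -0.55 ± 0.15 (interval -0.89 to -0.21) and an adjusted p of 0.112. Pmvk (ENSMUSG00000027952, chr3:89454541-89469013, plus strand) had the lowest counts of the 9 genes, at 14.95, 14.2 and 16.7 CPM in wildtype and 11.1, 10.7 and 11.6 CPM in GalTKO. Both groups were tight and did not overlap. Its log2 fold change was -0.46 ± 0.12 (interval -0.73 to -0.18) and its adjusted p 0.107.

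Mvd and Idi1 make and interconvert the 5-carbon units. Mvd (ENSMUSG00000006517, chr8:122433601-122443422, minus strand) was at 59.8, 51.7 and 102 CPM in wildtype and 22.7, 13.6 and 27.1 CPM in GalTKO. It had the lowest fitted level relative to wildtype, 29.7%, and also the widest spread, with coefficients of variation of 37.9% and 32.6%. Its log2 fold change of -1.75 ± 0.35 had an interval of -2.58 to -0.92 and did not pass the threshold (adjusted p 0.0634). Idi1 (ENSMUSG00000058258, chr13:8885501-8892451, plus strand) was at 53.1, 51.7 and 78.4 CPM in wildtype and 25.2, 18.1 and 32.4 CPM in GalTKO, again high in wildtype replicate 3 and low in GalTKO replicate 2. The log2 fold change of Idi1 was -1.28 ± 0.25, with an interval of -1.86 to -0.70 and an adjusted p of 0.0478. Leaving out GalTKO replicate 2 or 3 kept the call, and leaving out GalTKO replicate 1 or any wildtype library lost it, with adjusted p of up to 0.143. It was lost too with upper-quartile scaling (0.0547), without the low-count filter (0.15) and with protein-coding genes only (0.059).

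None of the 3 genes of farnesyl diphosphate and squalene passed the edgeR threshold, although their groups did not overlap. Fdps (ENSMUSG00000059743, chr3:89093588-89101959, minus strand) was at 108, 101 and 159 CPM in wildtype and 79.7, 52.0 and 86.4 CPM in GalTKO. That is 59.3% of wildtype (interval 40.1% to 87.8%), with an adjusted p of 0.18, the largest of the 9 genes. Fdft1 (ENSMUSG00000021273, chr14:63145150-63179578, minus strand) was at 155, 155 and 226 CPM in wildtype and 109, 69.7 and 107 CPM in GalTKO. Its level of 53.2% of wildtype had an interval of 37.3% to 75.9% and an adjusted p of 0.0931. Sqle (ENSMUSG00000022351, chr15:59315077-59331192, plus strand) was at 165, 170 and 263 CPM in wildtype and 106, 64.0 and 112 CPM in GalTKO. GalTKO replicate 2 was the low library in all 3 genes, and without it none of them passed. Sqle was at 47.1% of wildtype (interval 30.4% to 72.9%), with an adjusted p of 0.105.

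**Figure D2:**
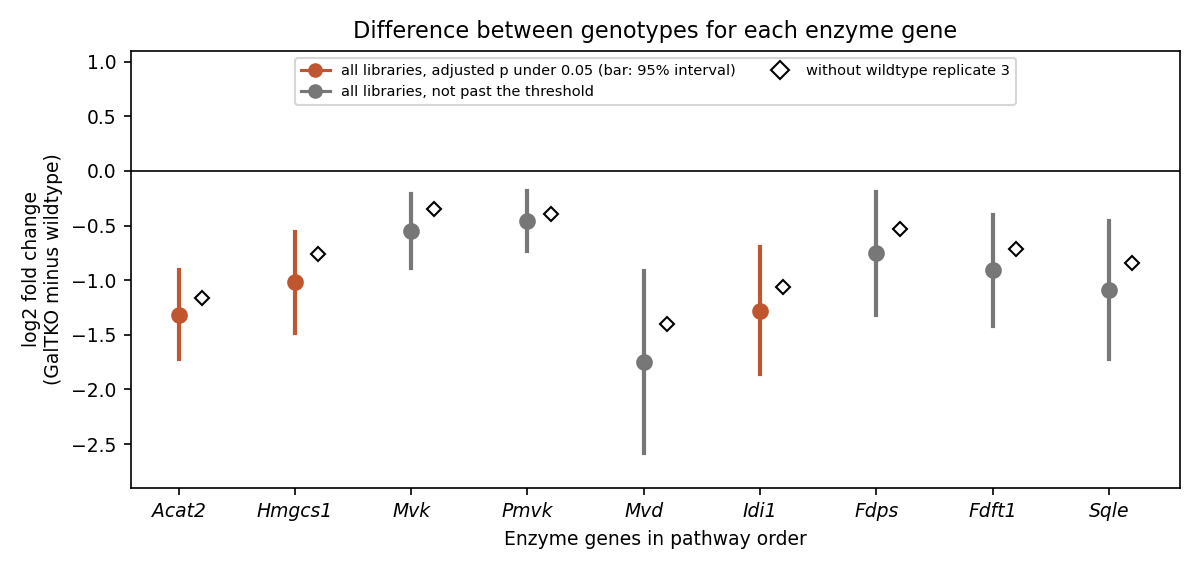
Log2 fold change of each gene (GalTKO minus wildtype) from the edgeR fit to all 6 libraries, with its 95% interval as a bar, orange where the adjusted p was under 0.05 and grey otherwise, and the same value without wildtype replicate 3 as an open diamond. All 9 intervals lie below 0, and leaving out wildtype replicate 3 moves every gene toward 0, to a median of -0.76.

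How many of the genes passed depended on the test and the filter. DESeq2's Wald test on the same counts called 8 of the 9 lower, all but Pmvk (adjusted p 0.0555), where it called 3.02% of 20010 genes lower. Without the filter on low counts edgeR called 2, Acat2 and Mvk (adjusted p 0.0112 for Mvk), and with protein-coding genes only it called Acat2 alone. Leaving out wildtype replicate 3 left 2 genes past the edgeR threshold, Acat2 and Hmgcs1, and a median log2 fold change of -0.76. Without GalTKO replicate 2 there were again 2, Acat2 and Idi1, with a median of -0.87. Leaving out wildtype replicate 1, wildtype replicate 2 or GalTKO replicate 1 left Acat2 alone, and leaving out GalTKO replicate 3 left Acat2 and Idi1.

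To compare the size of the difference among genes, each gene's log2 CPM was set against the mean of the other 8 per library. No scaling of the libraries can alter this ratio. Genotype differences in it cancel out over the 9 genes by construction, so both signs occur although all 9 genes were lower in GalTKO. Mvd was lower relative to the others in GalTKO by a log2 difference of -0.83, with log2 ratios of -0.66, -0.85 and -0.41 in wildtype and -1.38, -1.78 and -1.24 in GalTKO. Acat2 and Idi1 were also lower relative to the rest, with differences of -0.35 and -0.31. Pmvk, Mvk and Fdps lay the other way, at 0.63, 0.54 and 0.28. In these 6 genes the ratios of the groups did not overlap, which gave each the smallest p that an exact two-sided permutation test of 3 against 3 allows, 0.1 (0.15 after Benjamini-Hochberg adjustment over the 9 genes), so no ratio could pass 0.05. Hmgcs1, Fdft1 and Sqle had overlapping ratios, with differences of 0.02, 0.11 and -0.10. These values depend on the reference and on GalTKO replicate 2. Against the median of the other 8 genes the differences were 0.26 for Hmgcs1, 0.33 for Fdft1, 0.15 for Sqle and 0.49 for Fdps, and the ratios of 8 genes did not overlap between groups. Without GalTKO replicate 2 the difference was -0.21 for Hmgcs1 and 0.02 for Sqle, and again 8 genes had ratios that did not overlap. Those of Mvd, Acat2, Idi1, Mvk, Pmvk and Fdps kept their sign in both. The Hmgcs1 ratio was 4.17 in GalTKO replicate 2 and 3.41 and 3.54 in the other GalTKO libraries, against 3.63 to 3.78 in wildtype.

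**Figure D3:**
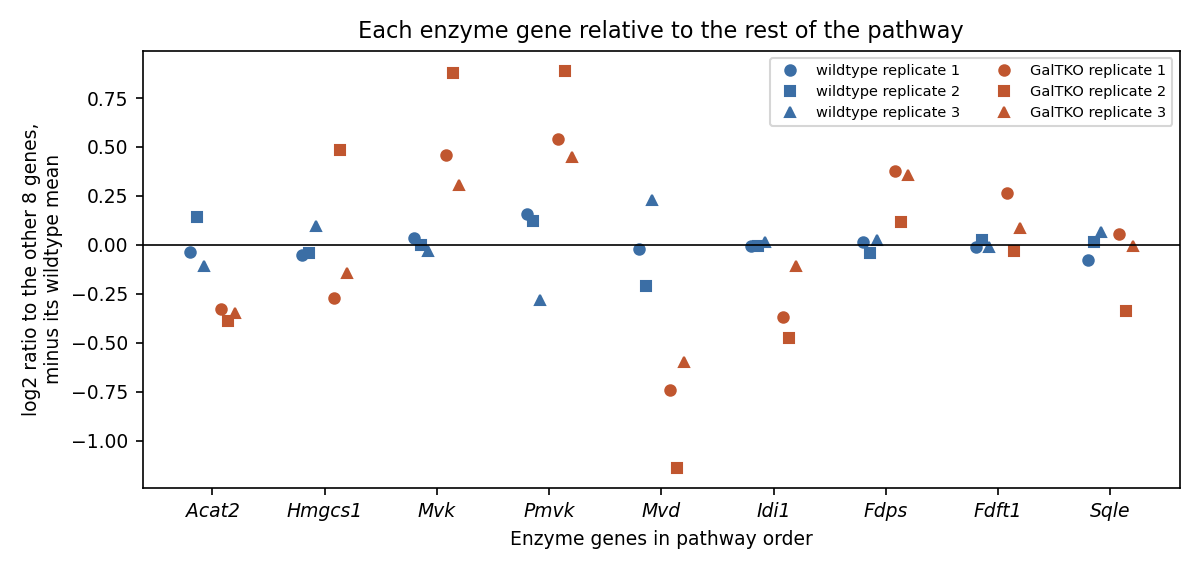
Log2 ratio of each gene to the mean of the other 8 in each library, drawn relative to the gene's own wildtype mean (0), with wildtype in blue, GalTKO in orange and the replicate by symbol. All GalTKO points of Mvd, Acat2 and Idi1 lie below the wildtype points, those of Pmvk, Mvk and Fdps lie above, and GalTKO replicate 2 is often the farthest.

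Across genes, levels were compared per length, as CPM per kilobase of the gene's merged exons. Hmgcs1 was the most abundant at 218 ± 64.0 in wildtype and 107 ± 11.3 in GalTKO (SD, n = 3 each), and made up 48.8% and 49.6% of the sum over the 9 genes. In wildtype Fdft1 (42.3 ± 9.71), Acat2 (41.2 ± 7.40), Mvd (38.2 ± 14.5), Sqle (36.0 ± 9.92) and Fdps (29.1 ± 7.46) followed, each overlapping its neighbours in the order. Idi1 (17.4 ± 4.30) lay below Fdps without overlap and overlapped Mvk (15.9 ± 3.54), and Pmvk was lowest at 8.91 ± 0.749, below Mvk without overlap. With the longest transcript as the length Mvd moved from rank 4 to rank 6 in wildtype. Some ranks changed from wildtype to GalTKO: Fdps from 6 to 3, Acat2 from 3 to 5, Sqle from 5 to 4, while Idi1 and Mvk exchanged 7 and 8. By merged exons Mvd moved from 4 to 6, at 11.4 ± 3.70 in GalTKO, below Sqle (16.9 ± 4.70) and Fdps (17.3 ± 4.33). The GalTKO libraries of Fdps, Sqle, Acat2 and Mvd overlapped, so the order among these genes in GalTKO is not settled. The share of Mvd in the sum was 8.55% in wildtype and 5.25% in GalTKO. The kinases went the other way, with shares of 3.56% and 5.03% for Mvk and 1.99% and 3.00% for Pmvk.

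The libraries ranked most of the 9 genes alike. After centring each gene's log2(CPM + 1) on its mean over the 6 libraries, Fdft1 lay closest to the average of the 9, with a root mean square difference of 0.089, and Mvd (0.393) and Pmvk (0.333) farthest, Mvd with a wider range over the libraries and Pmvk with a narrower one. Among 10028 other protein-coding genes with a mean of at least 10 CPM, outside the pathway lists below, the 5 nearest to the average were Acsl4 (0.099), Slc6a6 (0.109), Lrp11 (0.115), Stard4 (0.117) and Scarb1 (0.133), over 6 libraries. Acsl4 activates polyunsaturated fatty acids, Slc6a6 carries taurine, Stard4 moves cholesterol between membranes and Scarb1 is the receptor for high-density lipoprotein. Slc6a6, at 567, 569 and 772 CPM in wildtype and 322, 310 and 376 CPM in GalTKO, was called lower (log2 fold change -0.92 ± 0.14, edgeR adjusted p 0.0169). The other 4 had adjusted p between 0.0531 and 0.113. Being chosen for this likeness, their levels are a description.

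**Figure D4:**
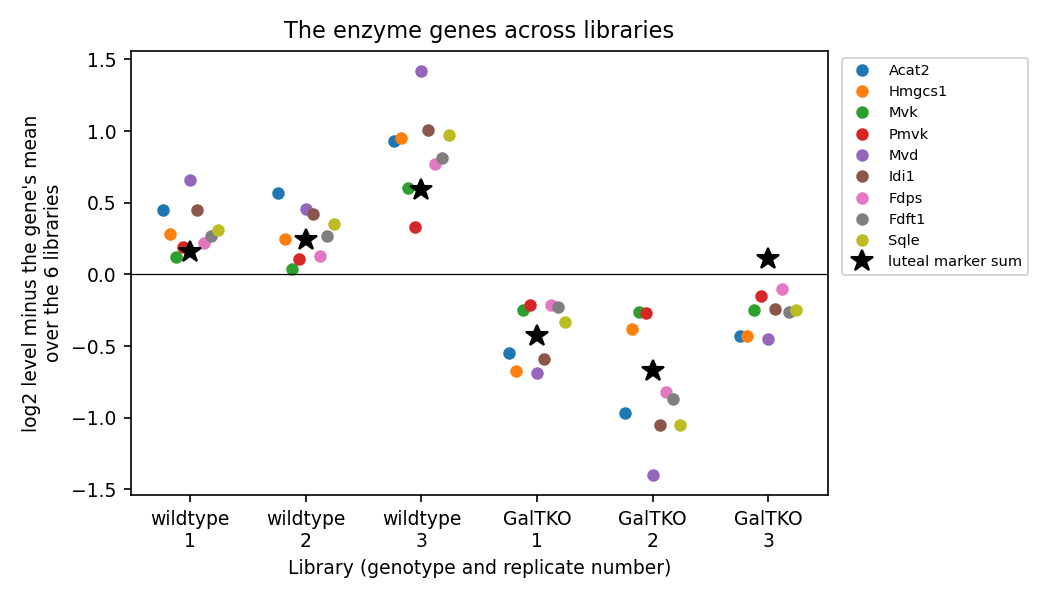
Log2(CPM + 1) of each of the 9 genes minus its own mean over the 6 libraries, by library, with the log2 summed CPM of the luteal marker genes, centred in the same way, as a black star. Wildtype replicate 3 is the highest library of all 9 genes and of the luteal markers, and GalTKO replicate 2 the lowest of 8 genes and of the luteal markers.

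Ovary RNA comes from many cell types, and in bulk tissue fewer cells of a type and less RNA per cell cannot be told apart. The summed level of the markers of luteal and steroidogenic cells was lower in GalTKO, while the single markers were mixed. Of 11 such markers, none at 0, 10 had a negative log2 fold change and 1, Star, was called lower. In 6 every GalTKO library was below every wildtype library. In the other 5 the groups overlapped: Lhcgr (-1.41), Parm1 (-0.37), Sfrp4 (-0.14), Ptgfr (-0.03) and Akr1c18 (0.53). The summed level of the 11 markers was 17912 to 24033 CPM in wildtype and 10071 to 17251 CPM in GalTKO. Much of it came from Cyp11a1 and Hsd3b1, which were not called. The log2 of that sum, centred over the 6 libraries, was 0.16, 0.24 and 0.59 in wildtype and -0.43, -0.67 and 0.11 in GalTKO. With this score as a covariate the median log2 fold change of the 9 genes was -0.37, all 9 stayed negative (-0.83 to -0.10), 0 passed the edgeR threshold (adjusted p 0.122 to 0.872) and 3 had an unadjusted p under 0.05. Every GalTKO score was below every wildtype score, and the score holds steroidogenic genes, so an effect of genotype and one of luteal content cannot be told apart. Of 6 macrophage markers, none at 0, 3 were called lower, with sums of 310 to 377 CPM in wildtype and 202 to 223 CPM in GalTKO, and of 3 endothelial markers, none at 0, 2 were called lower, with sums of 382 to 495 CPM and 299 to 339 CPM. Their part in the result was not tested. Summed theca, granulosa, oocyte and stroma markers overlapped between the genotypes, but of the 7 granulosa markers Amh was called higher (131 to 173 CPM in wildtype and 249.6 to 292 CPM in GalTKO, log2 fold change 0.76, edgeR adjusted p 0.0214). Of 5 fat markers Plin1 was called higher, and Adipoq, a defining fat gene, had 1 count in all 6 libraries. Wildtype replicate 2 held 20.7 CPM of oviduct markers, nearly all of it Ovgp1, against at most 1.08 CPM in the other libraries.

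The sterol enzymes downstream of squalene epoxide, which make lanosterol and carry it to cholesterol, were lower too where they passed the test. Of 11 tested, all had a negative log2 fold change (-1.38 to -0.26, median -0.85) and 3 were called lower: Lss, Dhcr7 and Cyp51, the last named after its values were seen. Lss, which closes the sterol rings, was at 116, 121 and 184 CPM in wildtype and 56.0, 43.2 and 62.4 CPM in GalTKO (log2 fold change -1.38 ± 0.21, edgeR adjusted p 0.023). Dhcr7, the last reductase of the route, was at 311, 242 and 395 CPM and 125, 174 and 138 CPM (-1.12 ± 0.20, adjusted p 0.0327). Like Hmgcs1, it had its highest GalTKO level in replicate 2. The Lss call was lost without wildtype replicate 2 or GalTKO replicate 1 (adjusted p up to 0.0768), that of Dhcr7 without replicate 1 or 3 of either genotype (up to 0.108), and that of Cyp51 (adjusted p 0.0448) without any 1 library other than GalTKO replicate 2 (up to 0.113).

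The isoprenoid branch list holds genes that use isoprenoid units for products other than squalene, among them dolichol, ubiquinone and prenylated proteins. It gave no call. Of its 15 genes 9 had a negative and 6 a positive log2 fold change, from -0.22 to 0.16 with a median of -0.06. None passed the edgeR test, 1 had an unadjusted p under 0.05, and neither DESeq2 nor limma voom called any. That gene, Nus1, a subunit of the enzyme that builds dolichol chains, was at 95.8, 94.7 and 96.2 CPM in wildtype and 84.1, 78.3 and 83.8 CPM in GalTKO, a log2 fold change of -0.22 ± 0.07 (adjusted p 0.184). The next smallest p was that of Icmt, the methyltransferase of prenylated proteins (-0.21 ± 0.11, adjusted p 0.368). The summed level of the 15 genes was 649 to 666 CPM in wildtype and 602 to 641 CPM in GalTKO, while that of the 9 mevalonate genes was 1502 to 2365 CPM and 821 to 969 CPM.

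Genes that supply acetyl-CoA, and the paralogs of the mevalonate enzymes, were mixed. Of 8 listed 7 were tested and 1 was called lower, with a median log2 fold change of -0.23. Acss2, which makes acetyl-CoA from acetate in the cytosol, was at 29.9, 35.4 and 54.7 CPM in wildtype and 11.7, 18.2 and 17.0 CPM in GalTKO (-1.35 ± 0.26, adjusted p 0.0479). Its call held without wildtype replicate 1 and was lost without any other library, with upper-quartile scaling or with protein-coding genes only (adjusted p up to 0.121 with a library left out). Acly, which makes acetyl-CoA from citrate, was at 601, 590 and 828 CPM and 395, 509 and 387 CPM (-0.65 ± 0.17, adjusted p 0.0968). Acat1, the mitochondrial thiolase, differed by -0.06, and Idi2, the paralog of Idi1, had 1 count in all 6 libraries and was not tested.

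Of 7 sterol regulators 1 was called lower. Insig1, which holds SREBP proteins in the endoplasmic reticulum and is itself an SREBP target, was at 212, 170 and 294 CPM in wildtype and 93.5, 81.3 and 116 CPM in GalTKO (-1.22 ± 0.22, adjusted p 0.0408). Its call was lost without wildtype replicate 1 or any 1 GalTKO library (adjusted p up to 0.129), and also without the low-count filter or with protein-coding genes only. Scap, the escort of SREBP, differed by -0.60 ± 0.19 (adjusted p 0.161). Srebf2, the gene of SREBP-2, was at 261, 248 and 319 CPM in wildtype and 249, 197 and 219 CPM in GalTKO, with overlapping groups (-0.31 ± 0.13, adjusted p 0.254). The median over the 7 genes was -0.24.

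**Figure D5:**
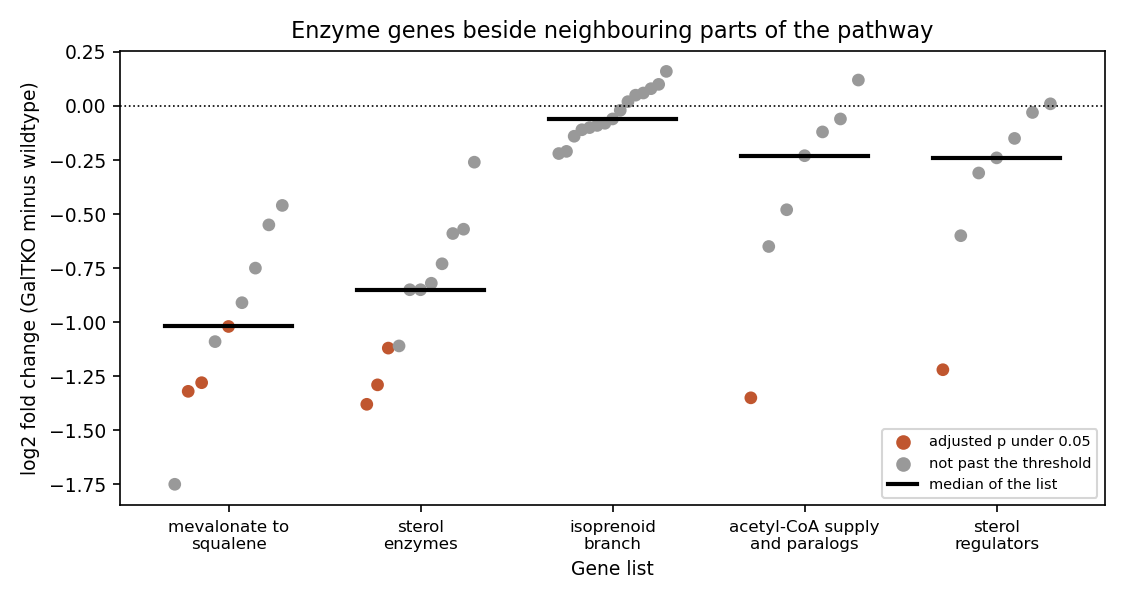
Log2 fold change (GalTKO minus wildtype, edgeR) of each tested gene in the mevalonate to squalene set and in 4 neighbouring lists, with genes at an adjusted p under 0.05 in orange, others in grey and the list median as a black line. The mevalonate (median -1.02) and sterol enzymes (median -0.85) lie below 0 throughout, while the isoprenoid branch is spread about 0 (median -0.06).

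Some of the genes share sequence with other transcripts, and the sources used here do not give how shared reads and strands were counted. Acat2 matches Acat3 at 97.7% identity over 1477 bases, but Acat3 held 58 counts in wildtype and 45 in GalTKO, against 7484 and 2853 for Acat2. On the opposite strand Acat2 matches Tcp1 at 98.7% identity over 445 bases, and Tcp1 held 17658 counts in wildtype and 17123 in GalTKO, more than Acat2. Also on the opposite strand, Fdft1 overlaps Ctsb over 774 bases, 18.3% of the Fdft1 exons. Ctsb had means of 746 and 593 CPM in wildtype and GalTKO (-0.33, edgeR adjusted p 0.244), above Fdft1 in both. The level of Fdft1 is therefore uncertain if strand was not used. No annotated exon overlap was found for Acat2. Its level is uncertain all the same, because reads that also match Tcp1 or Acat3 may have been counted for it or discarded. The largest pseudogene counts were those of Gm3571 (134 in wildtype and 77 in GalTKO), 98.9% identical to Fdps over 1062 bases, and Gm13502 (112 and 43), identical to Idi1 over 684 bases. Fdps held 8748 and 4924 counts and Idi1 4361 and 1692, so reads given to these 2 pseudogenes were few beside those of the parent genes. On the same strand the annotated gene Gm43738 overlaps 1124 bases of the Fdps exons, 26.7% of them, and had 0 counts in both genotypes. How reads in that stretch were counted is not stated, so the level of Fdps is uncertain too.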

How the data were processed

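Whole-ovary total RNA was depleted of ribosomal RNA with Ribo-Zero Gold and made into stranded TruSeq libraries, per the labels' protocols. The authors deposited raw counts, whole numbers per Ensembl gene that are not normalized. STAR 2.7.6a, cutadapt 1.16, DESeq2 1.30.1 and featureCounts 1.6.3, with GRCm38 as the build, are named in the submitters' processing notes. How strand and multiply mapped reads were treated is not stated there. Of 55487 identifiers, 55227 matched GENCODE M21, and the other 260 held 0.00307% of counts.

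All genes were fitted together with edgeR 4.0.16 in R 4.3.3: filterByExpr (minimum count 10, minimum total 15), TMM scaling, robust quasi-likelihood test of genotype, Benjamini-Hochberg adjustment over 16957 genes, adjusted p under 0.05. CPM uses TMM-scaled library sizes. Of all genes 433 were called. No pair of libraries of a group agreed within sampling noise (chi-square per degree of freedom at least 12).

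The 9 genes, the lists and the tests were chosen with earlier results of these data known. Named were the 9 genes, Galt, the 2 genes of each list with the smallest p, the 5 nearest profiles, and overlapping or near-identical genes (BLAST 2.17.0, 90% identity over 300 bases). Cyp51, Srebf2, Acat1 and Idi2, and the markers Star, Cyp11a1, Hsd3b1, Ptgfr, Sfrp4, Akr1c18, Amh, Plin1, Adipoq and Ovgp1, were added to complete counts or as paralogs; 1 further gene is not reported here. Alternatives were upper-quartile and median-of-ratios scaling, DESeq2 1.42.0, limma 3.58.1 voom with quality weights, other filters, protein-coding genes only, leaving out each library, a replicate block, and, chosen after seeing the data, a luteal score as covariate. The edgeR and DESeq2 fits were tested on simulated data. Further steps used Python 3.11.15, pandas 2.3.3, numpy 2.4.6, scipy 1.17.1 and matplotlib 3.10.9.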

Additional observations from a re-analysis of the deposited data

How the results depend on the processing

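All 9 mevalonate genes kept a negative log2 fold change in all alternatives run. Of 144 single-gene values under alternatives 114 stayed on the same side of the threshold, 17 lost it and 13 gained it. The number past the threshold, 3 in the report, was 8 with DESeq2, 4 with limma voom, 2 with upper-quartile scaling, 2 without the low-count filter (Acat2 and Mvk), 1 with protein-coding genes only, 5 at an adjusted p under 0.1, 0 with the luteal score, and 1 to 2 with 1 library left out. With the luteal score the median log2 fold change of the 9 genes was -0.37. Over all tested genes 242 of 16957 were called lower in the report and 604 of 20010 with DESeq2. It was 292 of 16957 with limma voom, 205 of 16957 with upper-quartile scaling and 508 of 30937 without the low-count filter. With protein-coding genes only 147 of 14383 were called lower, with the luteal score 39 of 16957, and with 1 library left out 86 to 423. Against the median of the other 8 genes the relative difference of Sqle turned from -0.10 to 0.15. Of the 11 sterol enzymes (3 in the report) 9 passed with DESeq2, 1 without the low-count filter, 6 at an adjusted p under 0.1, 0 with the luteal score and 0 to 4 with 1 library left out. For acetyl-CoA supply and paralogs (1 in the report) the number was 2 with DESeq2, 2 without the filter, 2 at an adjusted p under 0.1, 0 with upper-quartile scaling, protein-coding genes only or the luteal score, and 0 to 1 with 1 library left out. For the sterol regulators (1 in the report) it was 2 with DESeq2, 0 without the filter, with protein-coding genes only or with the luteal score, and 0 to 1 with 1 library left out. Fewer genes or libraries were fitted where they were left out, and otherwise the cause was not tested. The labels do not say whether the replicate numbers pair the libraries, and correlations over 3 libraries a group cannot settle it. Same-numbered deviations correlated at 0.093, -0.04 and 0.078, and the other pairs at -0.118 to 0.029. Not every library correlated best with its own number. With the replicate number as a block 7 of the 9 genes passed, where 196 of 16957 tested genes were called lower. With 3 libraries a group and 223 to 385 counts per library, Pmvk had the largest counting error of the 9 genes, up to 6.70% in a library.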
